A study of Mus musculus with 4 samples.

Results

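Transcripts of 10 genes that make, break down, carry or sense extracellular adenosine, ATP and NAD were examined in mouse peritoneal B1a cells and splenic follicular B2 cells. The genes were listed by function, with earlier results of these data known: the ectonucleotidases Nt5e and Entpd1, the NAD glycohydrolase Cd38, the adenosine-clearing enzymes Ada and Adk, the nucleoside transporter Slc29a1, the adenosine receptors Adora2a and Adora2b, and the ATP-gated channels P2rx4 and P2rx7. All 10 were found among the 20599 gene symbols of the deposited tables, and all 10 passed the filter on low counts. Of these symbols, 12078 were tested.

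Bulk RNA-Seq libraries of 2 wild-type B1a and 2 wild-type B2 samples on a C57BL/6 background were compared. B1a cells were sorted from peritoneal washes as CD5+, CD23- and IgM+, and B2 cells were sorted from spleen as IgDhi, IgMlo and CD21+. The labels give an age of 4 weeks for every sample, whereas the methods of the study give 4 weeks for B1a and 8 weeks for follicular cells and describe the control animals both as littermates and as C57BL/6J mice, so that cell type, organ and, by the methods, age cannot be told apart. Libraries from mice lacking Dnmt3a were not analysed here.

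Extracellular ATP, released by stressed or activated cells, is sensed by P2X channels and P2Y receptors. CD39, encoded by Entpd1, strips phosphates from ATP and ADP to leave AMP, and CD73, encoded by Nt5e, converts AMP to adenosine. CD38 hydrolyses NAD, from which AMP and then adenosine can also be formed. Adenosine acts on G protein-coupled receptors, of which the products of Adora2a and Adora2b raise cAMP through Gs. It is removed by uptake through the equilibrative transporter ENT1 (Slc29a1), by deamination to inosine through ADA and by phosphorylation to AMP through ADK. CD73 and CD39 on B cells are known as a route by which lymphocytes produce adenosine and restrain neighbouring immune cells.

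Library totals lay between 11032732 and 18588623 expected counts, so that 3 counts, the floor used here, corresponded to between 0.161 and 0.272 CPM (counts scaled to a common library size). The 2 B1a replicates were less alike (Pearson's r = 0.889 over log2(CPM + 1) of the genes tested) than the 2 B2 replicates (r = 0.981), and B1a and B2 libraries correlated at 0.848 to 0.897, where genes are not independent replicates. Of all symbols, 200 had at least 100 counts in 1 B1a library while the other had 3 or fewer, and 4 symbols did so in B2. None of the 10 genes, and none of the 106 other purine pathway genes described here, was among them. The sorting labels were checked against marker genes. Cd79a, a signalling chain of the B cell receptor, was at 1756 and 1661 CPM in B1a and 1207 and 1152 CPM in B2, and its partner Cd79b lay between 890 and 1232 CPM in the 4 libraries. Of the 6 B cell markers checked, 2 were higher in B1a and 2 higher in B2 at an edgeR adjusted p under 0.05. Those higher in B2 were Pax5 (268 and 265 CPM in B1a, 501 and 492 CPM in B2) and Cd22 (1087 and 780 CPM in B1a, 1806 and 1663 CPM in B2). A summed B1a list (Cd5, Spn, Itgam, Bhlhe41 and Zbtb32) was 1182 and 893 CPM in B1a and 75.8 and 75.3 CPM in B2. Cd5, the sort marker among them, was a small part of it, at 15.9 and 22.4 CPM in B1a and 5.47 and 2.25 CPM in B2 (edgeR adjusted p = 0.146). The other 4 were higher in B1a at an edgeR adjusted p under 0.05. Fcer2a, which encodes CD23, was at 63.7 and 60.9 CPM in B1a and 934 and 896 CPM in B2. Cr2, which encodes CD21, was at 98.4 and 92.0 CPM in B1a and 968 and 1045 CPM in B2.

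Of the 10 genes, 2 were called higher in B1a cells and 0 were called higher in B2 cells by edgeR's quasi-likelihood test at a Benjamini-Hochberg adjusted p under 0.05, and 8 were not called. At an unadjusted p under 0.05, 5 of them were higher in B1a and 0 in B2, against 11.7% and 9.22% of all genes tested. DESeq2 called 4 higher in B1a and 0 higher in B2, against 8.37% and 4.56% of all genes tested. The called genes were Nt5e, the enzyme that makes adenosine from AMP, and Adora2a, the high-affinity Gs-coupled adenosine receptor. Over all genes tested, 5.74% were called, 4.24% as higher in B1a and 1.50% as higher in B2. The libraries of both groups did not overlap for any of the 10 genes in CPM scaled by TMM, with B1a the higher group each time, against 25.3% of all genes tested that showed that order. The median log2 fold change was 1.27 over the 10 genes and -0.03 over all genes tested. In TPM, a level per transcript length, 8 of the 10 genes had both B1a libraries above both B2 libraries, the exceptions being P2rx4 and Adora2b. The TPM scale placed B1a lower as a whole, with a median log2 fold change of -0.30 on log2(TPM + 1) against -0.02 for the same 11679 genes in the count fit, and its calls split into 266 higher in B1a and 233 higher in B2, against 512 and 181 in the count fit. With 2 samples a group, an exact permutation test of a single value cannot go below p = 0.333, so no such test was made. The p-values of the fit set the difference between groups against the spread between samples of a group. That spread is pooled over both cell types and drawn toward that of other genes. The methods describe the samples as coming from separate mice.

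**Figure D1:**
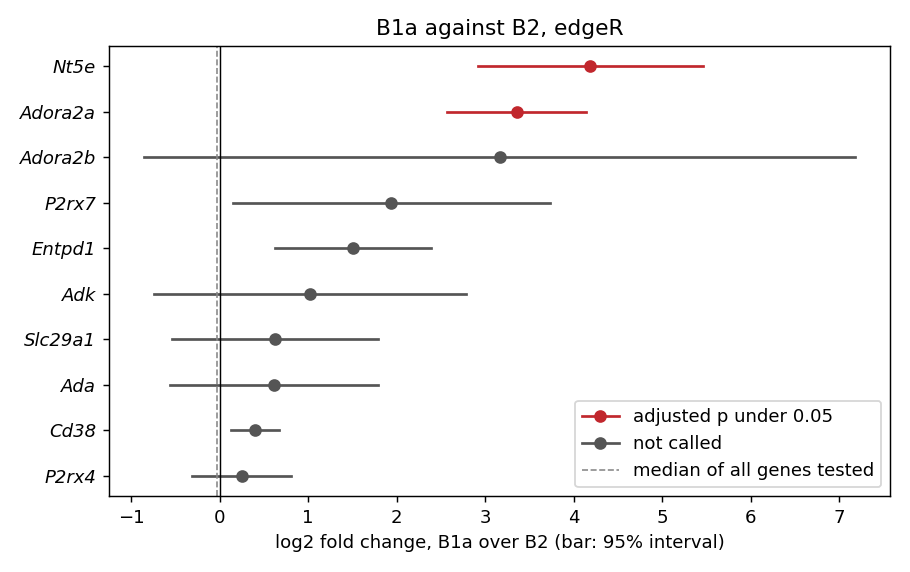
Log2 fold change of B1a over B2 for each of the 10 genes (x axis; points, edgeR estimates; bars, 95% intervals; 2 libraries per cell type), with the median of all genes tested as a dashed line. Nt5e at 4.19 and Adora2a at 3.36 are the called genes in red, and the bar of Adora2b runs from -0.85 to 7.18.

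The ectonucleotidases stand first in the pathway. The B1a libraries held 40.3 and 28.96 CPM of Nt5e and the B2 libraries 1.56 and 2.20 CPM, which rest on 450, 322, 18 and 42 counts. Both B1a libraries lay far above both B2 libraries, and the B2 counts were above the floor. The fold change was 18.2 (95% interval 7.55 to 44.1), a log2 fold change of 4.19 (SE 0.52, edgeR adjusted p = 0.0100). The call was made by 8 of 10 alternative fits and not by limma-voom (adjusted p = 0.0539) or limma on log2(TPM + 0.1) (adjusted p = 0.0623). Nt5e (chr9:88327609-88372089 in RefSeq, GRCm38.p6) was counted as 1 entry with 1 transcript, and RSEM reported no spread of its count from reads shared with other entries.

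Entpd1, the enzyme that supplies CD73 with AMP, was measured at 57.3 and 44.5 CPM in B1a and at 21.9 and 14.01 CPM in B2. The groups did not overlap, and the fold change was 2.84 (95% interval 1.55 to 5.22; log2 fold change 1.51, SE 0.36). The call was not made in the chosen test (edgeR adjusted p = 0.0757), while 6 of the 10 alternative fits called Entpd1 (adjusted p from 0.00214 to 0.169). The ratio of Entpd1 to Nt5e in TPM, computed within a library, was 1.21 and 1.31 in B1a and 11.9 and 5.44 in B2. B1a libraries thus held nearly equal levels per length of both transcripts, and B2 libraries held several times more Entpd1 than Nt5e.

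Cd38, the principal NAD glycohydrolase of B cells, had the highest level per length of the 10 genes in every library. It was measured at 434 and 436 CPM in B1a and 323 and 336 CPM in B2. The replicates of each cell type were within a few percent of each other and the groups did not overlap, with a fold change of 1.32 (95% interval 1.09 to 1.60) that was not called (log2 fold change 0.40, SE 0.11, edgeR adjusted p = 0.112, called by 1 of 10 alternative fits). In TPM, Cd38 was 343 and 336 in B1a and 301 and 307 in B2. Its paralog Bst1, a GPI-anchored ADP-ribosyl cyclase, gave 77, 0, 8 and 48 counts in B1a replicates 1 and 2 and B2 replicates 1 and 2. The B1a libraries held both the highest and the lowest of these values, with the B2 libraries between them, and the sign of the Bst1 difference depended on the fit.

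The adenosine receptors followed. Adora2a was measured at 159 and 102 CPM in B1a and at 11.02 and 14.3 CPM in B2, from 1770, 1132, 127 and 274 counts. The lower B1a library was several times above the higher B2 library. The fold change was 10.2 (95% interval 5.95 to 17.6; log2 fold change 3.36, SE 0.32, edgeR adjusted p = 0.00462), and all 10 alternative fits and all 4 fits that left out a library called it. Adora2a (chr10:75316877-75334792, GRCm38.p6) had a mean of 118 ± 38.3 TPM (SD, n = 2) in B1a, next below Cd38 among the 10 genes, and of 13.5 ± 2.34 TPM (SD, n = 2) in B2.

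Adora2b, the low-affinity Gs-coupled receptor, was measured at 9.86 and 0.989 CPM in B1a and at 0.347 and 0.836 CPM in B2. These rest on 110, 11, 4 and 16 counts, so that only B1a replicate 1 stood apart and B1a replicate 2 lay close to the B2 libraries. Its estimated log2 fold change of 3.16 had a 95% interval of -0.85 to 7.18 and was not called (SE 1.63, edgeR adjusted p = 0.350). Without B1a replicate 1 the log2 fold change was 0.70, and in TPM B1a replicate 2 and B2 replicate 2 were tied at 1.26. Of the Gi-coupled receptors, Adora1 had 0 counts in all 4 libraries, and Adora3 had 13 counts in B2 replicate 1 and 0 in the others. A count of 0 allows up to 3 counts, an upper limit of 0.161 to 0.272 CPM by library that covers counting error only.

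The enzymes and the transporter that clear adenosine differed less. Ada, adenosine deaminase, was measured at 21.9 and 15.6 CPM in B1a and 12.5 and 11.9 CPM in B2, without overlap. The fold change of 1.53 had a 95% interval of 0.681 to 3.44 (log2 fold change 0.61, SE 0.48, edgeR adjusted p = 0.551). Adk, adenosine kinase, was measured at 9.32 and 13.8 CPM in B1a and 5.38 and 6.01 CPM in B2. Its fold change of 2.03 had a 95% interval of 0.600 to 6.88 (log2 fold change 1.02, SE 0.72, edgeR adjusted p = 0.503). Slc29a1 was measured at 16.7 and 19.1 CPM in B1a and 11.9 and 11.3 CPM in B2, a fold change of 1.54 with a 95% interval of 0.687 to 3.44 (log2 fold change 0.62, SE 0.47, edgeR adjusted p = 0.543). For all 3 genes the intervals included no difference and a more than 3-fold difference alike, and no alternative fit with all 4 libraries called them. The related transporter ENT2, encoded by Slc29a2, had 160, 53, 32 and 67 counts, a log2 fold change of 1.60 that was not called (edgeR adjusted p = 0.434).

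Of the ATP-gated channels, P2rx7, which opens at high ATP, was measured at 9.68 and 29.7 CPM in B1a and 5.31 and 4.97 CPM in B2. The B1a replicates differed more from each other than B1a replicate 1 did from the B2 libraries. The log2 fold change of 1.94 had a 95% interval of 0.15 to 3.73 and was not called (SE 0.73, edgeR adjusted p = 0.207), and without B1a replicate 2 it was 0.92. P2rx7 is quantified from 5 transcripts, and the mean transcript length that RSEM assigned was 4764 bases in both B1a libraries and 3630 and 3094 bases in the B2 libraries. On the TPM scale its levels were 4.76 and 14.2 in B1a and 4.06 and 4.39 in B2.

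P2rx4, a channel that opens at lower ATP, was at 59.2 and 56.0 CPM in B1a and 45.7 and 51.1 CPM in B2. Its log2 fold change of 0.25 had a 95% interval of -0.31 to 0.81 (SE 0.23, edgeR adjusted p = 0.622), which bounds the fold between 0.806 and 1.75, and in TPM the groups overlapped at 71.1 and 65.7 in B1a against 64.6 and 71.1 in B2. The gene overlaps Camkk2 in the annotation, for which 59.5 and 54.4 CPM were counted in B1a and 100 and 66.8 CPM in B2 (log2 fold change -0.55, edgeR adjusted p = 0.313). A strand setting for counting is not given in the sources used here, so reads in the overlap cannot be assigned to either gene with certainty. Most other P2X and P2Y genes had few counts. P2rx1 gave 0, 14, 14 and 3 counts, P2rx3 gave 0, 2, 25 and 31 counts and P2rx5 gave 0, 3, 32 and 36 counts. P2ry4 gave 19, 39, 99 and 200 counts (log2 fold change -1.87, edgeR adjusted p = 0.337). P2rx3, P2rx5 and P2ry4 had both B2 libraries above both B1a libraries in CPM and were not called. Of the 5 tested P2X genes, 2 had a positive log2 fold change, as did 0 of the 2 tested P2Y genes, P2ry4 and P2ry10. Over all genes tested, 48.5% were positive. P2ry10, a lysophosphatidylserine receptor of lymphocytes named with the P2Y genes, gave 1189, 1982, 1597 and 3126 counts (log2 fold change -0.08, edgeR adjusted p = 0.908).

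**Figure D2:**
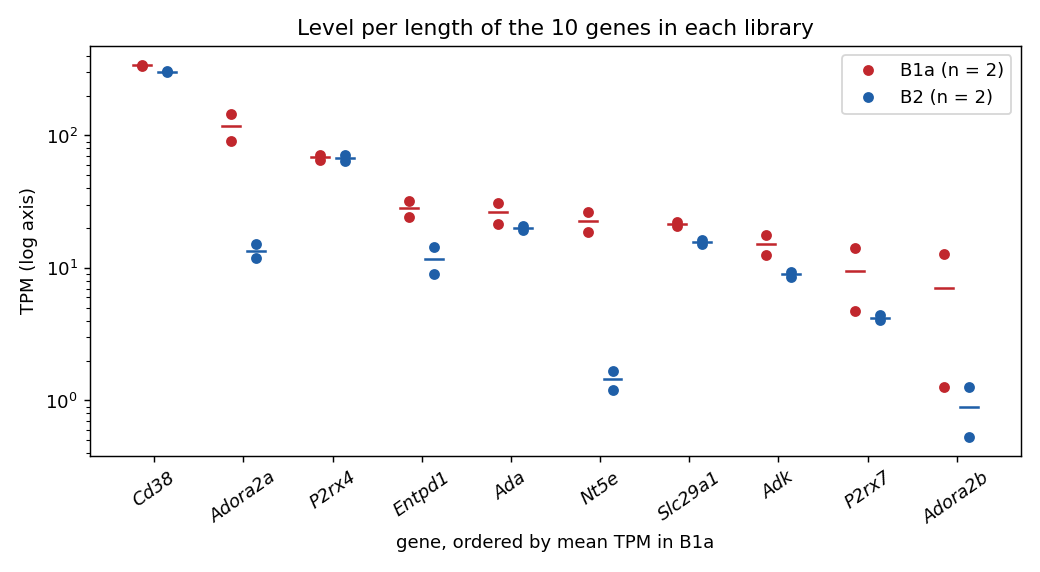
TPM of the 10 genes in each library on a log axis, ordered by mean TPM in B1a (points, libraries; short lines, means; 2 libraries per cell type). Cd38 is highest in both cell types, Nt5e and Adora2a show the widest gaps between cell types, and the 2 Adora2b points of B1a lie at 12.9 and 1.26.

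Levels per length ordered the genes differently in the 2 cell types. In B1a the mean TPM ran from Cd38 (340) through Adora2a (118), P2rx4 (68.4), Entpd1 (28.2), Ada (26.3), Nt5e (22.6), Slc29a1 (21.4), Adk (15.2) and P2rx7 (9.50) to Adora2b (7.06). The ranges of the 2 replicates overlapped between neighbours from Entpd1 to Slc29a1 and from Adk to Adora2b, so those orders were not resolved. In B2 the mean TPM ran from Cd38 (304) through P2rx4 (67.9), Ada (20.2), Slc29a1 (15.7), Adora2a (13.5), Entpd1 (11.7), Adk (8.96), P2rx7 (4.22) and Nt5e (1.44) to Adora2b (0.895), with overlapping neighbours from Slc29a1 to Adk and between Nt5e and Adora2b. Adora2a accounted for 20.7% and 14.8% of the summed TPM of the 10 genes in B1a and for 2.67% and 3.34% in B2, and Cd38 accounted for 49.0% and 54.9% in B1a and 67.8% and 67.7% in B2.

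The wider purine and purinergic pathway was described from lists of 107 further genes, of which 106 were found and 80 were tested. Of these, 4 were called higher in B1a and 0 were called higher in B2, beside 5.74% of all genes tested called, and the median log2 fold change was 0.16. At an unadjusted p under 0.05, 13 were higher in B1a and 4 in B2 by edgeR, where 20.9% of all genes tested passed in either direction. DESeq2 called 9 and 2, where it called 12.9% of all genes tested.

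The cAMP arm lies downstream of the Gs-coupled adenosine receptors. Of its 17 tested genes, 3 were called, all higher in B1a, and 14 were not called (median log2 fold change 0.26). Over all genes tested, 4.24% were called higher in B1a and 1.50% higher in B2. At an unadjusted p under 0.05, 6 of the 17 were higher in B1a and 2 in B2, against 11.7% and 9.22% of all genes tested. DESeq2 called 5 and 2, against 8.37% and 4.56% of all genes tested. Prkar2b, a type II regulatory subunit of protein kinase A, was at 24.3 and 52.3 CPM in B1a and 2.34 and 1.41 CPM in B2 (log2 fold change 4.36, edgeR adjusted p = 0.0163). The related subunit gene Prkar2a was at 42.1 and 34.3 CPM in B1a and 7.20 and 9.51 CPM in B2 (log2 fold change 2.19, edgeR adjusted p = 0.0344). Pde3b, a phosphodiesterase that degrades cAMP, was at 133 and 179 CPM in B1a and 79.3 and 70.7 CPM in B2 (log2 fold change 1.06, edgeR adjusted p = 0.0433). None of the 3 held its call in every alternative: Prkar2a was called in 8 of 10, and Prkar2b and Pde3b in 7 of 10 each, and Prkar2a and Pde3b lost the call when either B2 library was left out (adjusted p = 0.0921 and 0.207 for Prkar2a, 0.0563 and 0.161 for Pde3b). The 3 genes comprise 2 regulatory subunits, which hold the kinase inactive in the absence of cAMP, and 1 enzyme that removes cAMP. DESeq2 also called Adcy9 and Pde4a higher in B1a. Adcy9, an adenylyl cyclase, which makes cAMP, was at 20.9 and 21.0 CPM in B1a and 5.03 and 1.99 CPM in B2 (log2 fold change 2.58, edgeR adjusted p = 0.107). Pde4a, a phosphodiesterase, was at 38.5 and 37.5 CPM in B1a and 12.9 and 15.7 CPM in B2 (log2 fold change 1.41, edgeR adjusted p = 0.0832). The type I regulatory subunit gene Prkar1a, at higher CPM than both type II genes in every library, had the opposite sign, at 142 and 177 CPM in B1a and 223 and 251 CPM in B2 (log2 fold change -0.57, edgeR adjusted p = 0.127), and with Pde7a it made up the 2 genes that DESeq2 called higher in B2. Gnas, which encodes the Gs alpha subunit itself, was measured at 342 and 406 CPM in B1a and 373 and 427 CPM in B2, with overlapping groups. Adenylyl cyclase Adcy7, the most abundant cyclase of the list, was at 694 and 547 CPM in B1a and 469 and 470 CPM in B2 (log2 fold change 0.40, edgeR adjusted p = 0.189).

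Of the 13 tested genes of de novo purine synthesis, 1 was called and 12 were not (median log2 fold change 0.21), beside 5.74% of all genes tested called. The called gene was Prps2, a phosphoribosyl pyrophosphate synthetase that makes the sugar donor of the pathway, at 193 and 203 CPM in B1a and 61.3 and 64.3 CPM in B2 (log2 fold change 1.65, edgeR adjusted p = 0.0044), and it was called in all 10 alternative fits. By edgeR, no gene of NAD use and synthesis (11 tested, Cd38 included; median log2 fold change 0.45), of adenosine and nucleoside metabolism (16 tested, Ada and Adk included; median -0.17), of the P2X channels (5 tested; median -0.10), of the P2Y receptors (2 tested, P2ry10 included; median -0.98) or of the inflammasome genes linked to P2X7 (6 tested; median 0.28) was called. Among nucleoside transporters and ATP release genes, 9 were tested and 0 were called, with a median log2 fold change of 0.62. Of these lists, an unadjusted p under 0.05, which 20.9% of all genes tested had, was given to 2 genes higher in B1a for NAD, to 1 in each direction for adenosine and nucleoside metabolism, to 1 higher in B1a for P2X, to 0 for P2Y, to 1 higher in B2 for the inflammasome genes and to 3 higher in B1a for the transporters, and DESeq2 called Cd38 in the NAD list, Slc17a9 and Slc29a3 among the transporters and 0 genes in the other 4 lists. Beside Nt5e, the other 8 tested genes of the ectonucleotidase and ectophosphatase list were not called by edgeR, and Entpd2, Entpd3, Entpd8 and Enpp3 had 0 counts in all 4 libraries. At an unadjusted p under 0.05, 3 of the 9 tested were higher in B1a and 0 in B2. DESeq2 called Nt5e, Entpd1 and Entpd4 higher in B1a, where it called 12.9% of all genes tested. Entpd4 was at 139 and 130 CPM in B1a and 80.8 and 51.7 CPM in B2 (log2 fold change 1.03, edgeR adjusted p = 0.0861).

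**Figure D3:**
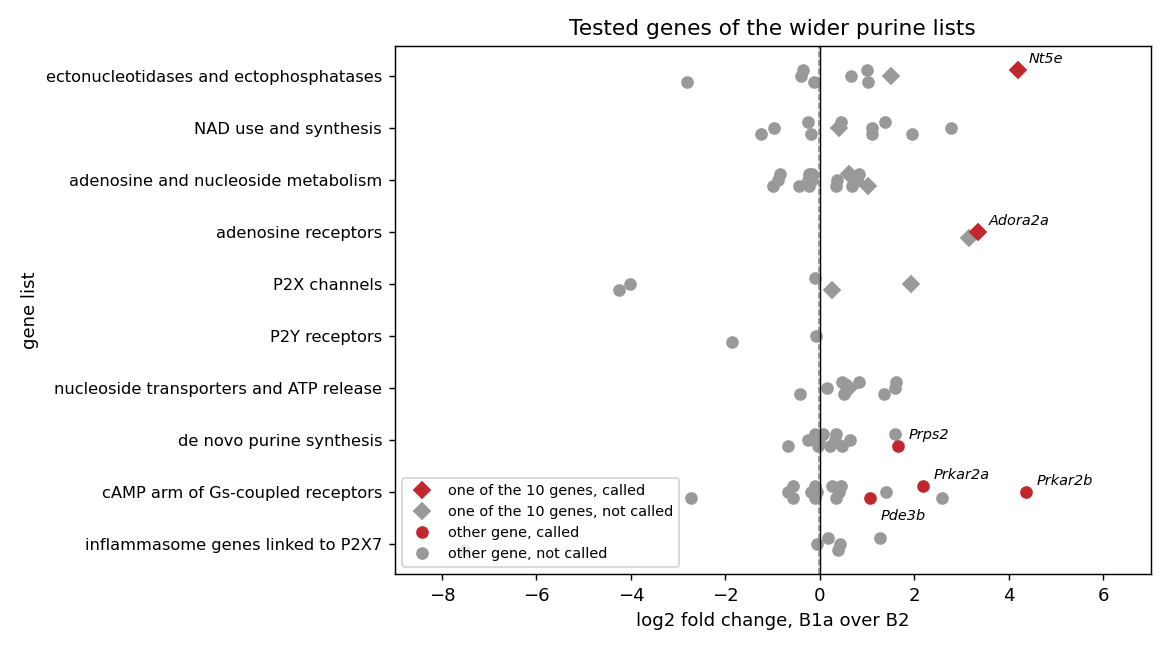
Log2 fold change of B1a over B2 (x axis) for each tested gene of 10 purine pathway lists (y axis; diamonds, the 10 genes; circles, the other genes; red, called; dashed line, median of all genes tested). The 6 called genes all lie to the right of 0, from Pde3b at 1.06 to Prkar2b at 4.36.

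The nearest counted genes on either side of the called genes were examined. Nt5e lies 596348 bases from Tbx18, a gene with 1.62 to 56.0 counts a library that was not called, and 4665 bases from Snx14, a sorting nexin at 36.5 and 45.8 CPM in B1a and 26.8 and 26.2 CPM in B2 (log2 fold change 0.63, edgeR adjusted p = 0.303). Adora2a lies 4476 bases from Specc1l, a cytoskeletal linker gene that was called higher in B1a at 238 and 255 CPM against 154 and 159 CPM (log2 fold change 0.65, SE 0.13, edgeR adjusted p = 0.0487). That call was made by 6 of 10 alternative fits and was lost without either B2 library (adjusted p = 0.416 and 0.369). On the other side, at 72118 bases, Upb1 gave 41.2 and 14.9 CPM in B1a and 12.8 and 20.7 CPM in B2 and was not called. Neither neighbour of Nt5e was called, and the log2 fold change of Specc1l was far below that of Adora2a.

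Markers of cells that could accompany B cells in each organ were summed for each library. The 10 macrophage markers found, out of 11, summed to 198 and 223 CPM in B1a and 60.3 and 60.5 CPM in B2, and 6 of the 7 tested had a positive log2 fold change (median 1.93). Lyz2 was the called gene among them (127, 136, 16.8 and 27.2 CPM). C1qa (24.4 and 17.4 against 4.60 and 6.06 CPM), C1qb, Cd68 and Cd14 were not called but had both B1a libraries above both B2 libraries, Csf1r and Mertk overlapped between the groups, and Gata6, Timd4 and Fcgr1 were at or below 0.540 CPM in every library. Mast cell markers summed to 25.1 and 12.9 CPM against 6.67 and 4.54 CPM, with 3 of 4 tested positive and 0 called. Ms4a2 ran the other way (0.986 and 1.08 against 5.20 and 3.60 CPM), and Cpa3 was at 11.5 and 1.71 against 0 and 0.941 CPM. T cell markers summed to 127 and 80.8 CPM against 102 and 108 CPM, with 3 of 8 positive and 0 called. Lck gave 56.5 and 45.1 against 44.5 and 39.7 CPM, while Thy1 and Cd4 were at 0 in B1a and 3.21 to 5.38 CPM in B2. Cd8a and Cd3g differed between the B1a replicates (23.9 and 4.31 CPM, 10.4 and 0.180 CPM). Erythroid markers summed to 78.8 and 504 CPM in B1a and 36.1 and 80.8 CPM in B2, with 4 of 5 positive and Hba-a2 called higher in B1a (35.6 and 96.6 against 5.05 and 7.46 CPM, edgeR adjusted p = 0.0278). Dendritic cell markers summed to 16.4 and 25.8 CPM against 43.7 and 31.1 CPM, with 0 of 4 positive. NK cell and neutrophil markers were at 0 in both B1a libraries. In B2 the NK cell markers summed to 3.53 and 3.81 CPM and the neutrophil markers to 1.30 and 6.64 CPM. Mesothelial markers summed to at most 0.0867 CPM. The macrophage and mast cell sums and Hba-a2 were thus higher in B1a, as Nt5e and Adora2a were. The T cell and erythroid sums overlapped, and the dendritic cell, NK cell and neutrophil sums were higher in B2. The part of these cells in the differences was not tested. In bulk libraries, more cells that carry a transcript and more of it per cell cannot be told apart.

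Promoter windows are shown because the study of which these libraries form a part concerns CpG modification, and CG dinucleotides are the sites where it occurs. The windows were taken from RefSeq (GRCm38.p6), as the 250 bases before an annotated start. A window was found for 9 of the 10 genes, the exception being Adora2a. The windows printed are those of Entpd1, Ada and Adora2b, an enzyme that feeds adenosine production, an enzyme that removes adenosine and a receptor, at starts that match those of the counted transcripts in GENCODE. They are written from 5′ to 3′ on the strand of the gene, with CG dinucleotides in capitals. The Entpd1 window lies at chr19:40659520-40659769 on the plus strand, the Ada window at chr2:163750240-163750489 on the minus strand and the Adora2b window at chr11:62248734-62248983 on the plus strand.
Entpd1: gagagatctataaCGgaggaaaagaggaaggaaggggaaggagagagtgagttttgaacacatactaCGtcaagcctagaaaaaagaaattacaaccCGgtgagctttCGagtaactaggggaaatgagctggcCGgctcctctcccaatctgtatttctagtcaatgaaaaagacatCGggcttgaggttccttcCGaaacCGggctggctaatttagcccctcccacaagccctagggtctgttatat
Ada: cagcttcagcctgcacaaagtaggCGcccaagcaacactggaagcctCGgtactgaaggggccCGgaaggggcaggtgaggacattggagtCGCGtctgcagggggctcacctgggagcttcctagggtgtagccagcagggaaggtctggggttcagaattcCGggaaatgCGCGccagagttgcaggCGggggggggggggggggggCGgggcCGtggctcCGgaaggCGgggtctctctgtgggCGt
Adora2b: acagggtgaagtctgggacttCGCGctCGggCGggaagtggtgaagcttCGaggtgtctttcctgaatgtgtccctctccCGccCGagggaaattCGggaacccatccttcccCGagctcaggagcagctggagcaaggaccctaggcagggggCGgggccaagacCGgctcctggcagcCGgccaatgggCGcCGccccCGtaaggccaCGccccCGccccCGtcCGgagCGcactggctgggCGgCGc

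The printed Entpd1 window held 8 CG dinucleotides, more than 57.0% of the 32851 windows in the table, whose median was 6. A second RefSeq window of Entpd1, at chr19:40612116-40612365 and 47404 bases from the counted start, held 18, more than 78.3% of windows. The Ada window held 14 (more than 70.6% of windows) and the Adora2b window 22 (more than 85.2%). The RefSeq window of Nt5e held 21, more than 83.7% of windows, and that of Cd38 held 1, more than 7.87%. Those 2 RefSeq starts lie 412 and 256 bases from the starts that GENCODE gives, and all 250 bases of both windows fall within an exon of GENCODE and lie inside its transcripts, so their letters are not shown. Adk had 2 windows that start at counted transcripts, with 15 and 24 CG dinucleotides. The 5 letters TGACG, the core of a cAMP response element, were searched on both strands. They were found 1 time in each Entpd1 window and 0 times in the Ada and Adora2b windows, and 17.8% of all windows held them. Elsewhere they were found 2 times for P2rx4, 1 time in the Adk window with 15 CG dinucleotides and 1 time in the Slc29a1 window nearest a counted start. The windows of Nt5e, Cd38 and P2rx7 held 0. The 5 letters contain a CG dinucleotide, so that matches and CG counts overlap. Methylation at these positions was not analysed here.

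**Figure D4:**
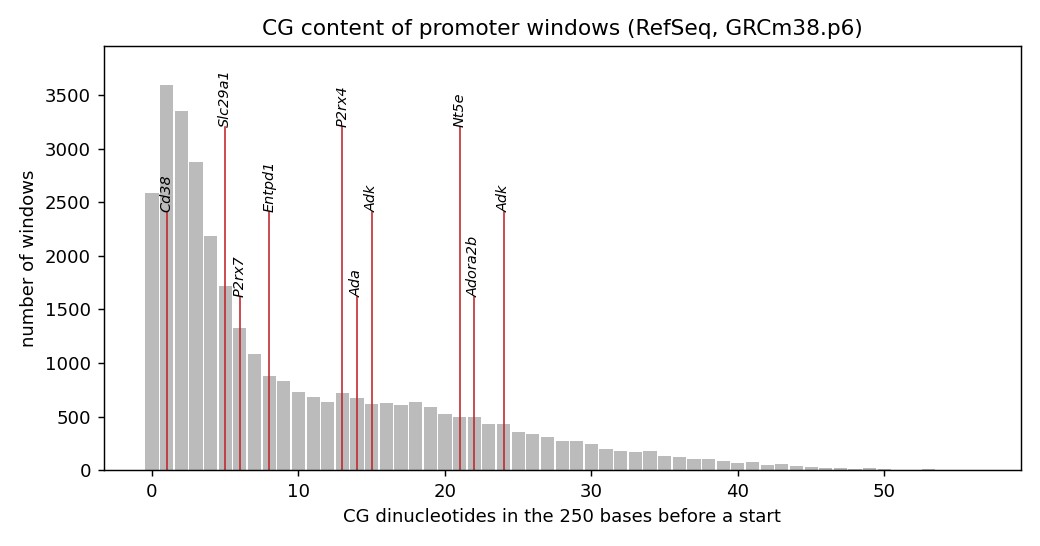
Number of RefSeq promoter windows of 250 bases (y axis) by their count of CG dinucleotides (x axis); red lines mark the window nearest to a counted transcript start for each of the 9 genes with one, with 2 equally near windows for Adk. Cd38 lies at 1, Entpd1 at 8, Nt5e at 21 and Adora2b at 22.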

How the data were processed

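RNA-Seq libraries of wild-type B1a (n = 2) and B2 (n = 2) cells were compared. The authors used RSEM (version 1.2.29 in the submitters' processing notes) with RefSeq transcripts of mm10. The authors deposited expected counts per gene entry, with shared reads divided between entries, and TPM, scaled to the same total in every library, beside a signal column that gives the spread of each count from shared reads, which was read only for the 10 genes. FPKM was not used. Library totals of 11032732 to 18588623 counts limit precision for genes near the floor of 3 counts, which covers counting error only.

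The 21970 entries were added up per symbol and the sums rounded. After filterByExpr and TMM scaling (factors 0.963 to 1.05), edgeR 4.0.16 under R 4.3.3 was fitted to both groups, with no block, with Benjamini-Hochberg adjustment and a threshold of 0.05. The common biological coefficient of variation was 0.507. Standard errors were derived from the F statistic. Scripts were tested on simulated data. The methods name EBSeq, which was not run. Samples were grouped by their labels. Alternatives were DESeq2 1.42.0, upper quartile factors, limma-voom (limma 3.58.1) with and without a weight for each cell type, a minimum of 10 counts in each library, all genes with a count, limma on log2(TPM + 1) and log2(TPM + 0.1) for genes of mean TPM at least 1, entries as deposited, a replicate block and each library left out.

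The genes and lists were chosen with earlier results of these data known. The text names all 10 genes, every called gene of the pathway lists, fixed relatives (Bst1, Adora1, Adora3, P2rx1, P2rx5, P2ry10 and Slc29a2) and the nearest counted gene on each side of a called gene. Other genes given by symbol (single marker genes, Gnas, Adcy7, Adcy9, Prkar1a, Pde4a, Pde7a, P2rx3, P2ry4, Entpd4, Camkk2, Slc17a9, Slc29a3 and list genes at 0 counts) were added after their values were seen. Some of the marker genes are not reported here.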

Additional observations from a re-analysis of the deposited data

How the results depend on the processing

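The log2 fold changes of all 10 genes stayed positive in every alternative, Adora2b having no value with at least 10 counts in every library. The calls were less stable. Genes called numbered 1562 with DESeq2 (1011 higher in B1a, 551 in B2), 1415 with cell type weights (1054 and 361), 1141 without a filter (779 and 362) and 359 on log2(TPM + 0.1) (196 in B1a), against 693; 266 were higher in B1a on log2(TPM + 1), and 278 and 279 were higher in B2 with limma-voom and with at least 10 counts. Of the 10 genes, DESeq2 called 4 (adding Entpd1 and Cd38) and log2(TPM + 0.1) called 1 (Adora2a), against 2. Pathway list genes called, against 6, were 15 with DESeq2 (13 higher in B1a, 2 in B2), 14 with cell type weights (12 and 2), 10 with at least 10 counts (all in B1a), 3 on log2(TPM + 1) and 2 on log2(TPM + 0.1).

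Same-numbered libraries did not deviate together (r = -0.0035), so the numbers were not taken to pair samples; with the replicate block, 1481 genes were called (889 higher in B1a, 592 in B2), with 16 pathway list genes (13 and 3), and Bst1 turned to -1.04. Without each library in turn, called genes ranged from 547 to 6241 (400 to 2734 higher in B1a, 145 to 3507 in B2), those of the 10 from 2 to 6, and pathway list genes from 4 to 52 (4 to 32 in B1a, 0 to 20 in B2). The high counts came without either B1a library (4064 and 6241 genes), where the remaining B1a library is assumed to vary like the 2 B2 libraries. The 6 of the 10 genes called there include Adora2a, Nt5e, Entpd1 and Cd38 in both fits. Bst1 (log2 fold change 1.10 as reported) also turned to -1.49 with limma-voom, -1.48 with cell type weights and -0.997 on log2(TPM + 0.1), and ranged from -7.51 to 2.30 without single libraries. In the same way P2rx1 ranged from -6.22 to 1.94, P2ry10 from -0.50 to 0.24 and Upb1 from -0.18 to 1.29, each changing sign. The causes of these changes were not tested. Little can be said of Adora2b, P2rx1, P2rx5 and Bst1, which had from 0 to 110 counts a library. The B1a libraries, with nearly equal totals (11578785 and 11558489 counts), held 110 and 11 counts of Adora2b and 77 and 0 counts of Bst1.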
